A study of Homo sapiens with 6 samples.

Results

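The mRNAs of the subunits of RNA polymerases I, II and III were followed in 6 GST pulldowns, 3 with the GST-Ferry complex as bait and 3 with GST alone. Members were the protein-coding genes of the count table whose symbol is that of a polymerase subunit (POLR1, POLR2 or POLR3 with its subunit letter), which gave 30 of 60676 listed genes. FERRY is an endosomal effector complex of the GTPase RAB5, and the pulldowns asked which RNAs it binds. With GST-Ferry the resin carried the complex fused to glutathione S-transferase (GST-Ferry), and in the control it carried the GST tag by itself (GST). The lysate for both baits was made from suspension cultures of HEK 293, a long-used line derived from human embryonic kidney, so cells and lysis were the same for all libraries and the bait was the one labelled difference. The count columns were assigned to the baits from their names alone (sample for GST-Ferry, control for GST), and no label tells whether a bait's 3 libraries had separate cultures as source. A p-value here therefore speaks of spread among libraries that could be technical. No library of the input lysate was analysed here, and a level is always a share of what a bait recovered. The libraries are bulk, so a level does not tell how many cells held an mRNA. Differences between the baits are differences in what was recovered.

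RNA polymerase I transcribes the large ribosomal RNA precursor, RNA polymerase II transcribes mRNAs and most small nuclear RNAs, and RNA polymerase III transcribes transfer RNAs, 5S RNA and other short RNAs. Each is built around a pair of large subunits that form the active centre, an assembly platform and a set of small subunits common to all 3 enzymes. A stalk, a zinc-ribbon subunit and, in polymerases I and III, built-in counterparts of the polymerase II factors TFIIF and TFIIE complete them. The subunits meet as proteins after translation in the cytoplasm, so their mRNAs are exported from the nucleus like those of other proteins.

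Levels are CPM (each count relative to its library's total, on a common scale), scaled between libraries by the trimmed mean of M-values (TMM), and errors are SD over 3 libraries or SE of a log2 fold change. The libraries held 2454538 to 6532665 counts with GST-Ferry and 7390346 to 10466520 counts with GST, and the subunit mRNAs took 0.244% to 0.278% of them with GST-Ferry and 0.208% to 0.234% with GST. Counts on the 5 FERRY subunit genes made up 0.249% of GST-Ferry 1, 2.72% of GST-Ferry 2 and 5.35% of GST-Ferry 3, against 0.0359% to 0.0504% with GST. PPP1R21, C12orf4 and TBCK carried this share (log2 fold changes of 8.83, 6.73 and 5.30), while GATD1 and CRYZL1 were at 0.12 and -0.50. All 7 mRNAs taken as HEK 293 markers, among them VIM, KRT8 and NEFL, were at 1 CPM or more in every library, with sums of 1568 to 2076 CPM with GST-Ferry and 1085 to 1225 CPM with GST. Of 9 markers of blood, liver, connective tissue and muscle, COL1A1 was the only one at that level in every library, the sums were 50.9 to 56.2 CPM with GST-Ferry and 18.0 to 53.5 CPM with GST, and HBB and CD3E had 0 counts. GST 3 stood apart in its relation to GC content, given further on, and GST-Ferry 1 in its share of bait mRNA. Values without these libraries are given beside the results that they move most.

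Sequences are shown for the alternative pair POLR3G and POLR3GL, because they differ in base composition, with which the fold changes are compared further on. The whole transcripts have 34.3% G and C for POLR3G and 48.5% for POLR3GL. The printed stretches are the first 201 coding bases from GENCODE 29 on GRCh38, 5′ to 3′, with the start codon in capitals. Those of POLR3G (chr5:90485568-90488083, plus strand) have 40.8% G and C and those of POLR3GL (chr1:145974866-145975381, plus strand) have 64.2%. The spans include introns.
POLR3G: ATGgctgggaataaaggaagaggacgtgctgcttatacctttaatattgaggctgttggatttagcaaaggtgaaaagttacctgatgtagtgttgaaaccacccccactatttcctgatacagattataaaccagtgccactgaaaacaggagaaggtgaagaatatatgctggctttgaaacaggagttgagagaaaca
POLR3GL: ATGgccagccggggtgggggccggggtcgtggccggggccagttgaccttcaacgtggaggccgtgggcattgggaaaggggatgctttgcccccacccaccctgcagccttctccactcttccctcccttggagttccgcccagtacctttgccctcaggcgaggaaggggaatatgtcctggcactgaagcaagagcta
Over their whole coding sequences POLR3G and POLR3GL were identical at 401 of 620 aligned bases (64.7%).

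No polymerase subunit mRNA passed the test across all genes, and most had a somewhat higher mean level with GST-Ferry. All 30 members passed the filter on low counts. In the quasi-likelihood test of edgeR, adjusted by Benjamini and Hochberg's method over 15546 genes, 0 members were higher and 0 were lower at an adjusted p under 0.05, where 0.592% of all tested genes were higher and 0.0322% were lower. Adjusted p-values of the members ran from 0.0841 to 0.997. DESeq2 called 1 member higher, POLR2L, and 0 lower, against 4.17% of genes higher and 1.47% lower, and limma-voom called 0 against 0.0901% higher. At an unadjusted p under 0.05, 8 members (26.7%) were higher and 0 lower in edgeR's test, against 11.3% and 8.05% of all tested genes. Of tested protein-coding genes, 13.4% were higher at that p.

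The log2 fold change (GST-Ferry over GST) lay above 0 for 23 of the 30 members and below 0 for 7. Its median was 0.28, against -0.03 over all tested genes and 0.02 over protein-coding ones. Of all tested genes 47.8% lay above 0, and of protein-coding ones 52.0%. The members ran from 0.89 for POLR2L to -0.44 for POLR3G. For 8 members every GST-Ferry library was above every GST library, among them POLR2L, POLR2C, POLR2E, POLR3K, POLR2A, POLR3D and POLR2J, and for 0 members were the groups apart the other way. Over all tested genes, 14.9% had groups apart with GST-Ferry higher and 12.2% with GST-Ferry lower. Over protein-coding genes, 17.4% had groups apart with GST-Ferry higher. The same 8 members were those with an unadjusted p under 0.05.

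**Figure D1:**
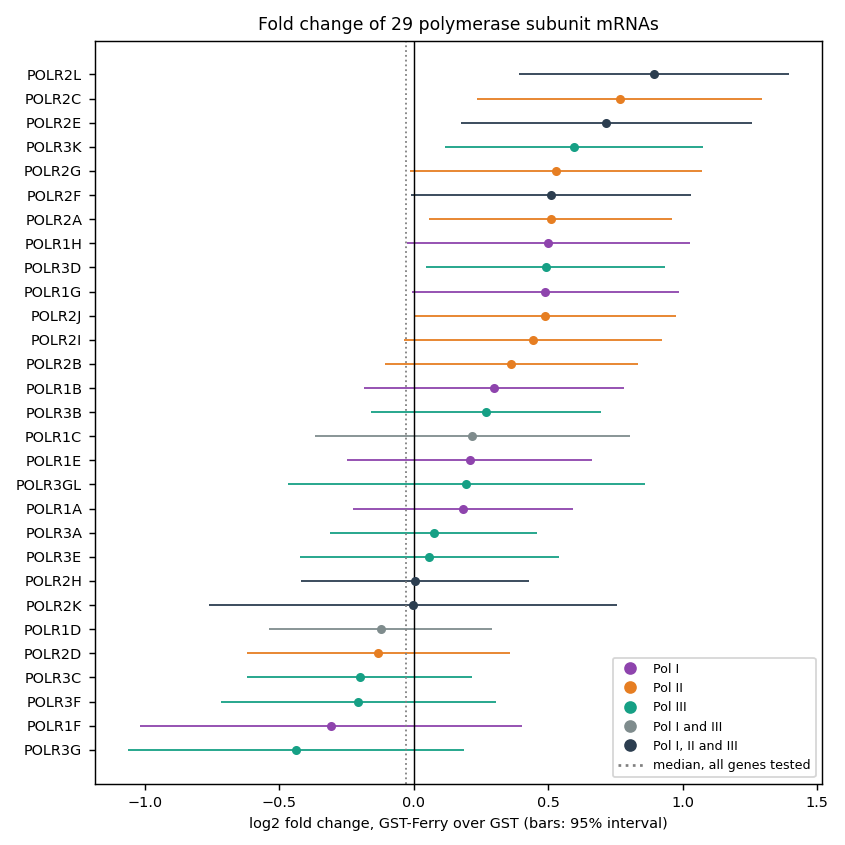
Log2 fold change of 29 of the 30 subunit mRNAs, GST-Ferry over GST, with its 95% interval from edgeR's fit, coloured by the polymerase the subunit belongs to; the dotted line is the median of all 15546 genes tested. The members drawn run from POLR2L at 0.89 to POLR3G at -0.44, and most lie above 0.

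By enzyme, the mRNAs of subunits common to all 3 polymerases and those of polymerase II stood highest. The 5 common subunits had a median log2 fold change of 0.51, the 7 subunits of polymerase II alone 0.49, the 6 of polymerase I alone 0.25, the 10 of polymerase III alone 0.13 and the 2 shared by polymerases I and III 0.05. Summed over the 7 polymerase II mRNAs, levels were 894, 1137 and 1038 CPM in GST-Ferry 1, 2 and 3, against 779, 729.5 and 800.4 CPM in GST 1, 2 and 3. These sums did not overlap between the baits. For the common subunits the sums were 336, 411 and 469 CPM with GST-Ferry, against 269, 331 and 283 CPM with GST, also without overlap. The 10 polymerase III mRNAs summed to 549, 678 and 686 CPM with GST-Ferry and 536, 578 and 559 CPM with GST, so GST-Ferry 1 lay inside the GST range. The 6 polymerase I mRNAs summed to 456, 590.3 and 581 CPM with GST-Ferry and to 426, 455 and 521 CPM with GST. Without GST 3 the GST-Ferry sum was 1.36 times the GST sum for polymerase II, against 1.33 with it. For polymerase I it was 1.23 times, against 1.16 with it, and the polymerase I sums then did not overlap. Without GST-Ferry 1 it was 1.41 times for polymerase II, 1.50 for the common subunits, 1.25 for polymerase I and 1.22 for polymerase III. None of these sums then overlapped, so the overlap seen for polymerases I and III depends on single libraries. The sum of the 2 mRNAs shared by polymerases I and III was 1.03 times as high with GST-Ferry, and 0.986 times without GST 3. No difference between the enzymes was tested.

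**Figure D2:**
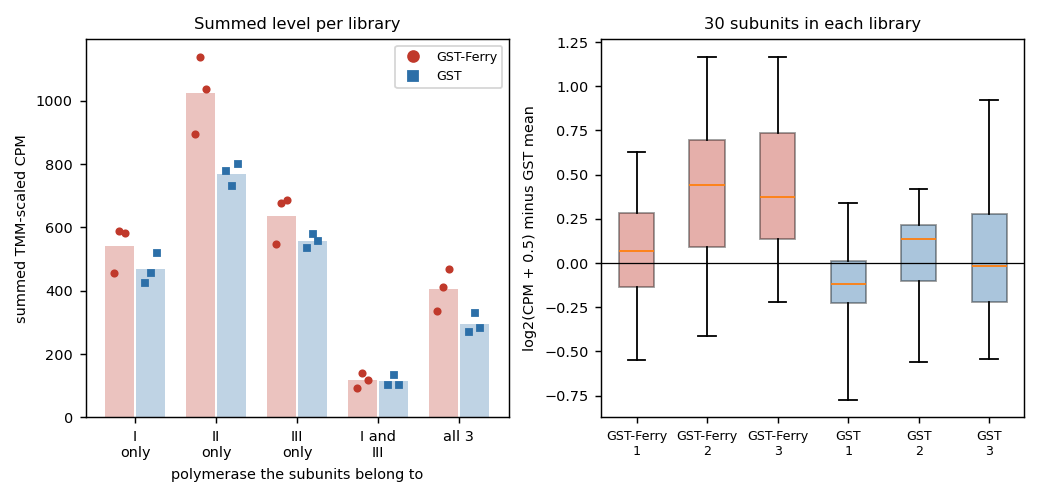
Left, TMM-scaled CPM summed over the subunits of each polymerase, with a point per library and bars at the mean of 3 libraries; right, log2(CPM + 0.5) of the 30 subunits relative to their GST mean, with boxes at the quartiles and whiskers at the extremes. The median of the 30 subunits is 0.07, 0.44 and 0.37 in GST-Ferry 1, 2 and 3, against -0.12, 0.14 and -0.02 in GST 1, 2 and 3.

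GST-Ferry 2 and 3 held the higher values. Relative to the mean of the GST libraries, the median member stood at 0.07 in GST-Ferry 1, 0.44 in GST-Ferry 2 and 0.37 in GST-Ferry 3 on the log2 scale, against -0.12, 0.14 and -0.02 in GST 1, 2 and 3. GST-Ferry 1 thus lay below GST 2. GST-Ferry 1 was also the library with the smallest share of bait mRNA among the GST-Ferry libraries. GST-Ferry 2 and 3 had the lowest totals of all libraries (2671831 and 2454538 counts, against 6532665 in GST-Ferry 1). Whether bait share or depth has a part in the result was not tested. Without GST-Ferry 1 the members' median was 0.44, and without GST-Ferry 2 it was 0.14.

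The catalytic pairs all had fold changes above 0, largest for polymerase II. POLR2A, the subunit that carries the heptad-repeat tail on which processing factors assemble, had 383, 410.1 and 409.7 CPM in GST-Ferry 1, 2 and 3, against 350.1, 273 and 222 CPM in GST 1, 2 and 3. The GST-Ferry libraries were close to each other, all above the GST libraries, which spread more widely. Its log2 fold change was 0.51 ± 0.21 (SE), with an unadjusted p of 0.0304 and an adjusted p of 0.212, and it was 0.34 without GST 3. Its partner POLR2B, the second-largest subunit, had 207, 329.8 and 232 CPM with GST-Ferry and 192, 179.9 and 226 CPM with GST. The groups overlapped, since GST 3 lay above GST-Ferry 1, and the log2 fold change was 0.36 ± 0.22.

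In polymerase III, POLR3A had 138, 153 and 140.5 CPM with GST-Ferry, against 141, 134 and 135 CPM with GST. The libraries of both baits lay close together, with a log2 fold change of 0.07 and a 95% interval from -0.31 to 0.46. POLR3B had 54.0, 69.6 and 59.6 CPM with GST-Ferry and 50.5, 45.2 and 56.0 CPM with GST (log2 fold change 0.27 ± 0.20). In polymerase I, POLR1A had 175, 198 and 228 CPM with GST-Ferry and 180.4, 184 and 164 CPM with GST (0.18 ± 0.19). POLR1B had 147, 220.0 and 179 CPM with GST-Ferry and 124, 134 and 185 CPM with GST (0.30 ± 0.22). In both polymerase I mRNAs at least 1 GST-Ferry library lay inside the GST range.

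Of the 5 subunits that all 3 enzymes share, POLR2L and POLR2E stood among the 3 highest members, and POLR2H and POLR2K had fold changes near 0. POLR2L, a small zinc-binding subunit, had 59.0, 71.6 and 85.7 CPM in GST-Ferry 1, 2 and 3, against 28.4, 42.8 and 44.8 CPM in GST 1, 2 and 3. The groups did not overlap, and the mean was 72.1 ± 13.4 CPM with GST-Ferry and 38.7 ± 8.96 CPM with GST (SD, n = 3 each). Its log2 fold change of 0.89 ± 0.23 (SE), a 1.86-fold difference, gave 0.0841 as edgeR's adjusted p. POLR2L was called with DESeq2 (adjusted p = 0.0229), without the filter on low counts (0.0255, where 1.29% of genes were higher and 0.989% lower) and without GST 3 (0.0134, where 4.45% were higher and 3.54% lower). Over its 15 alternatives the adjusted p ran from 0.000556 without GST 3 and GST-Ferry 1 to 0.480 without GST-Ferry 3.

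POLR2E, the jaw subunit of the common set, had 111, 156 and 164 CPM with GST-Ferry, against 99.5, 104 and 57.7 CPM with GST. GST 3 was the low library here, and GST-Ferry 1 lay just above GST 2 (log2 fold change 0.72 ± 0.25, adjusted p = 0.158). Without GST 3 the log2 fold change of POLR2E was 0.46. POLR2F, which sits at the base of the clamp, had 58.8, 59.3 and 87.9 CPM with GST-Ferry and 49.2, 58.9 and 35.5 CPM with GST, with GST-Ferry 1 just inside the GST range (0.51 ± 0.24, and 0.30 without GST 3). POLR2H, a small barrel-shaped subunit, had 73.0, 88.7 and 88.7 CPM with GST-Ferry and 73.1, 94.7 and 81.2 CPM with GST. Its 95% interval ran from -0.42 to 0.43 around a log2 fold change of 0.00. POLR2K, a further zinc-binding subunit, had 34.1, 35.4 and 43.1 CPM with GST-Ferry and 19.2, 30.1 and 63.6 CPM with GST, so all GST-Ferry libraries lay inside the 3.31-fold range of the GST libraries. The log2 fold change of POLR2K was -0.00, with an interval from -0.76 to 0.76, and it was 0.57 without GST 3.

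In the assembly platform the polymerase II members had the higher fold changes, a difference that was not tested. POLR2C and POLR2J, the pair that starts polymerase II assembly, both had groups without overlap. POLR2C had 55.6, 103 and 77.0 CPM with GST-Ferry, against 39.7, 42.5 and 55.5 CPM with GST, and GST-Ferry 1 stood barely above GST 3. Its log2 fold change was 0.77 ± 0.25 (adjusted p = 0.133), and it was called without GST 3 (0.89, adjusted p = 0.0233). POLR2J had 22.7, 23.1 and 27.4 CPM with GST-Ferry and 18.5, 19.0 and 14.3 CPM with GST (0.49 ± 0.23, unadjusted p = 0.0498). Near-identical copies of POLR2J exist (POLR2J2, POLR2J3 and POLR2J4), and how reads were split among them is not given in the sources used here. Its level is therefore uncertain. The counterparts in polymerases I and III, POLR1C and POLR1D, had log2 fold changes of 0.22 ± 0.27 and -0.12 ± 0.19, with overlapping groups. POLR1C had 39.1, 76.0 and 55.2 CPM with GST-Ferry and 44.2, 63.1 and 37.3 CPM with GST, and POLR1D had 53.8, 64.0 and 63.9 CPM with GST-Ferry and 59.0, 71.7 and 66.6 CPM with GST.

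Stalk subunits had fold changes of both signs, also within the polymerase II stalk. POLR2G had 83.0, 128 and 138 CPM with GST-Ferry and 59.1, 81.0 and 101 CPM with GST (log2 fold change 0.53 ± 0.25), while its partner POLR2D had 106, 95.1 and 112 CPM with GST-Ferry and 93.7, 95.8 and 154 CPM with GST (-0.13 ± 0.23). In POLR2D the single high library was GST 3. POLR1F of polymerase I showed the same layout more strongly, with 42.7, 44.2 and 40.9 CPM with GST-Ferry and 37.5, 32.2 and 89.3 CPM with GST. Its GST-Ferry libraries lay within 1.08-fold of each other, above GST 1 and GST 2 and far below GST 3. The log2 fold change of POLR1F was -0.31 ± 0.33, and 0.26 without GST 3.

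The 3 zinc-ribbon subunits, which act in RNA cleavage and proofreading, had fold changes close together. POLR3K had 36.1, 52.5 and 53.1 CPM with GST-Ferry, against 27.2, 35.4 and 30.3 CPM with GST, with GST-Ferry 1 just above GST 2 (log2 fold change 0.59 ± 0.22, adjusted p = 0.180). POLR1H had 24.3, 38.6 and 37.8 CPM with GST-Ferry and 19.6, 27.5 and 23.0 CPM with GST (0.50 ± 0.24). POLR2I had 36.6, 48.1 and 41.8 CPM with GST-Ferry and 26.2, 38.3 and 27.8 CPM with GST (0.44 ± 0.22). In POLR1H and POLR2I the groups overlapped by a single library of each bait.

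In the built-in initiation modules, all 4 TFIIF-like members had fold changes above 0 (median 0.35). Among them POLR3D had 70.7, 93.1 and 103 CPM with GST-Ferry, against 60.6, 69.6 and 58.5 CPM with GST, without overlap (0.49 ± 0.21, adjusted p = 0.220). POLR1G had 26.8, 35.8 and 40.4 CPM with GST-Ferry and 23.5, 28.1 and 20.8 CPM with GST (0.49 ± 0.23), and its partner POLR1E had 40.4, 53.7 and 55.2 CPM with GST-Ferry and 40.8, 49.5 and 37.9 CPM with GST (0.21 ± 0.21). In both, GST-Ferry 1 lay inside the GST range. POLR3E, the partner of POLR3D, had 70.5, 98.7 and 104 CPM with GST-Ferry and 82.9, 106 and 72.0 CPM with GST (0.06 ± 0.22). Of the 4 TFIIE-like members of polymerase III, 3 lay below 0 (median -0.20). POLR3C had 53.7, 53.3 and 62.6 CPM with GST-Ferry and 57.5, 65.0 and 72.2 CPM with GST (-0.20 ± 0.19), and POLR3F had 18.7, 24.7 and 20.9 CPM with GST-Ferry and 20.8, 22.5 and 30.5 CPM with GST (-0.21 ± 0.24). The groups overlapped in both, and without GST 3 the log2 fold changes were -0.15 for POLR3C and -0.063 for POLR3F. Median transcript GC content was 45.1% in the TFIIE-like module and 50.5% in the TFIIF-like one. With offsets for length and GC content, described further on, POLR3C was at -0.19, POLR3F at -0.0039, POLR3G at 0.040 and POLR3GL at 0.24. The TFIIF-like members then ran from 0.05 for POLR3E to 0.46 for POLR3D. The difference between the modules was not tested.

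POLR3G and POLR3GL encode alternative forms of the same polymerase III subunit, with POLR3G known from stem cells and tumours and POLR3GL from most differentiated tissues. POLR3G had 21.4, 23.5 and 29.1 CPM with GST-Ferry, against 26.7, 23.5 and 49.5 CPM with GST (log2 fold change -0.44 ± 0.29). Without GST 3 the log2 fold change of POLR3G was -0.080. POLR3GL had 11.4, 8.35 and 12.6 CPM with GST-Ferry and 11.4, 10.6 and 6.19 CPM with GST (0.20 ± 0.31, and -0.043 without GST 3). GST 3 was the highest of all 6 libraries for POLR3G and the lowest for POLR3GL. Per kilobase of exon, POLR3G spanned 5.31 to 7.25 CPM with GST-Ferry and 5.85 to 12.3 CPM with GST, and POLR3GL spanned 4.64 to 7.01 CPM with GST-Ferry and 3.44 to 6.32 CPM with GST. On this per-length scale the ranges of the pair overlapped with either bait.

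**Figure D3:**
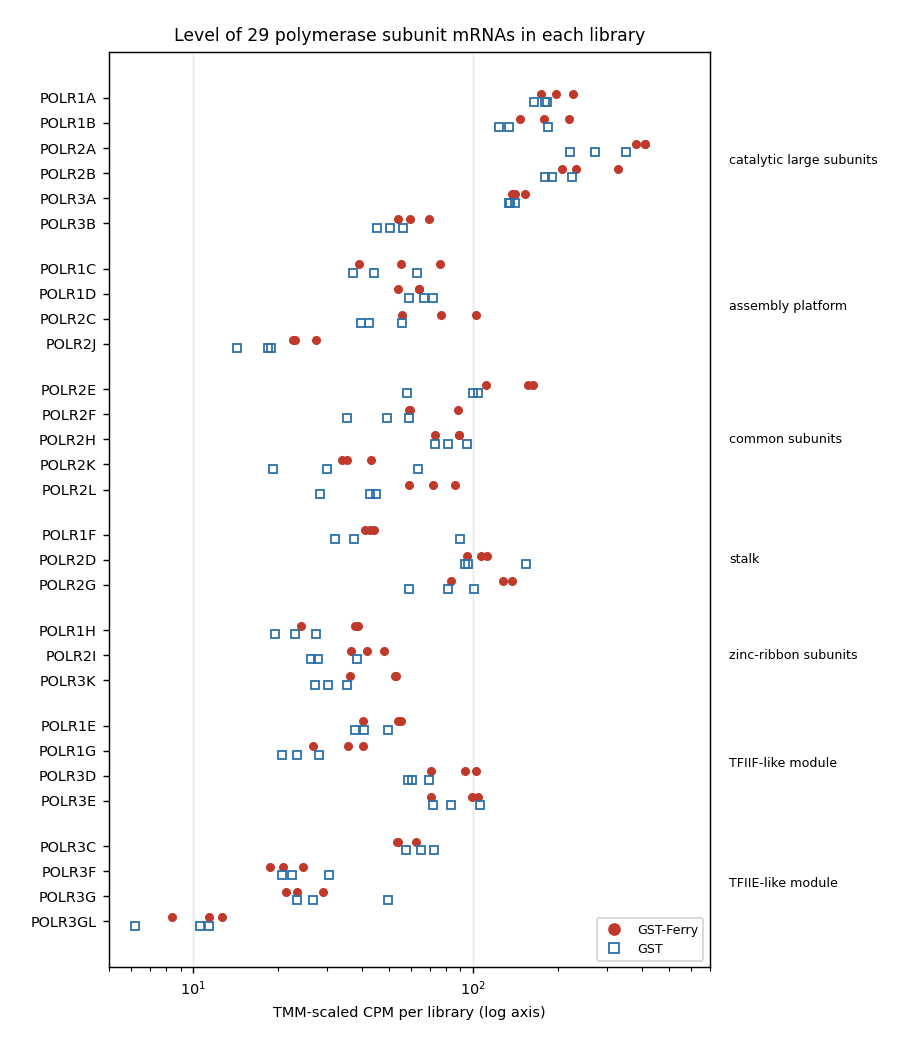
Level of 29 of the 30 subunit mRNAs in each library as TMM-scaled CPM on a log axis, grouped by the subunit's role, with GST-Ferry libraries as filled circles above the GST libraries as open squares. In POLR2K, POLR1F and POLR3G a GST library (GST 3) lies right of all others, and POLR2A has the highest level, 383 to 410.1 CPM with GST-Ferry.

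Per kilobase of exon, the order of mean levels ran from POLR2L, POLR2G, POLR2A and POLR2B at the top to POLR1D at the bottom with GST-Ferry, and from POLR2G, POLR2L, POLR2B and POLR2A to POLR3GL with GST. With GST-Ferry, POLR2L spanned 51.6 to 75.0, POLR2G 43.1 to 71.7, POLR2A 45.8 to 49.1 and POLR2B 35.2 to 55.9 CPM per kilobase. With GST, POLR2L spanned 24.9 to 39.2, POLR2G 30.7 to 52.5, POLR2A 26.5 to 41.9 and POLR2B 30.5 to 38.3 CPM per kilobase. Neighbours among these 4 overlapped with either bait. At the low end, POLR1D averaged 5.41 ± 0.523 CPM per kilobase with GST-Ferry and 5.87 ± 0.570 with GST (SD, n = 3 each). Lengths are those of all annotated exons joined. This is long for POLR1D (11210 bases, against 1166 bases in its principal transcript), so its level per length may be too low. Joined exons were also much longer than the principal transcript for POLR2F (7042 against 2106 bases) and POLR1C (5550 against 1355). The same held for POLR1H (3672 against 864) and POLR2G (1923 against 827). The order therefore depends on the length used, and no order by principal transcript was made.

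With all 6 libraries, the fold changes of the members followed the GC content of their transcripts, as those of all protein-coding genes did. Over the 30 members Pearson's r between GC content and log2 fold change was 0.61 (Spearman's rho 0.53), and over 12859 tested protein-coding genes it was 0.55 (rho 0.59). These are descriptions over genes, which share the libraries, and they carry no p. The relation was weaker without GST 3, where r was 0.17 over the members (rho 0.15) and 0.24 over protein-coding genes (rho 0.26), an alternative added after the data were seen. With the GC content of the coding sequence, r over the members was 0.71 (rho 0.69), and 0.34 (rho 0.32) without GST 3. The 10 members with the lowest GC content (34.3% to 48.5%) had 0.10 as their median log2 fold change, 5 of them above 0, and the 10 with the highest (54.5% to 60.1%) had 0.50, 9 of them above 0. For each library, GC content was also set against the level relative to the mean of all 6 libraries. Over the members, r was 0.38, 0.36 and 0.54 in GST-Ferry 1, 2 and 3, against -0.00, 0.40 and -0.77 in GST 1, 2 and 3. GST 3 was the library with the strongest relation, also over protein-coding genes (r = -0.80). The 10 members of lowest GC content were 1.42 times as high in GST 3 as in the mean of GST 1 and GST 2 (median), with POLR2K at 2.58, POLR1F at 2.56 and POLR3G at 1.97 times. The 10 of highest GC content were at 0.795 times, with POLR2E at 0.567.

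**Figure D4:**
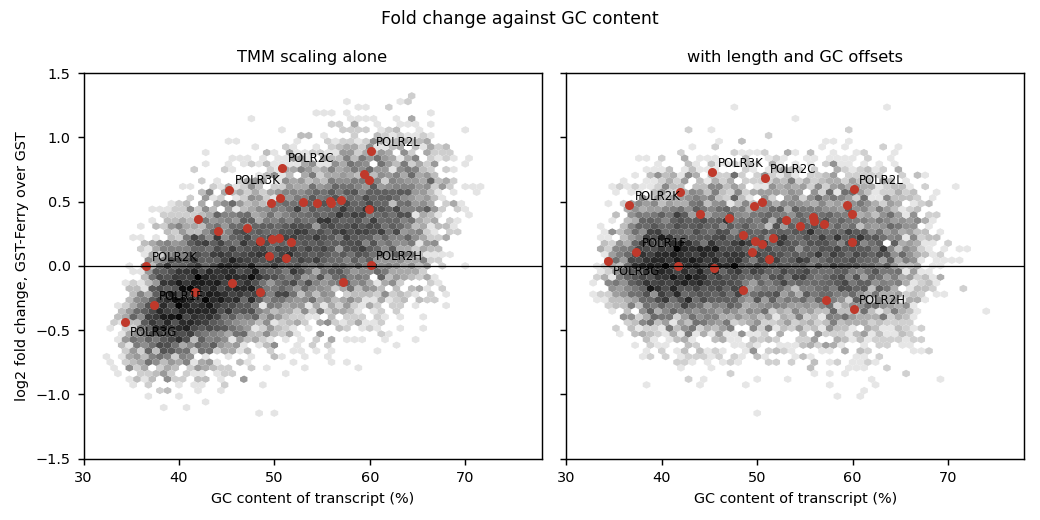
Log2 fold change (GST-Ferry over GST) against GC content of the transcript in percent, with TMM scaling alone (left) and with offsets for length and GC content in each library (right); red points are the 30 subunit mRNAs and grey hexagons all tested protein-coding genes, darker where there are more. Pearson's r over the 30 members is 0.61 on the left and -0.01 on the right.

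Offsets were then fitted in each library for the length of all annotated exons joined and for transcript GC content. With them, the members' correlation with the transcript GC content used for the offsets was -0.01. With the GC content of the coding sequence it was 0.33 (rho 0.31), against 0.07 over protein-coding genes. The members' median log2 fold change was 0.32, with 25 of 30 above 0. The median over all tested genes was then 0.03. The order among members was different. POLR3K came first with 0.73 (adjusted p = 0.0694), followed by POLR2C with 0.68 and POLR2L with 0.60, and 0 members were called. At an unadjusted p under 0.05, 10 members were higher in that fit, against 11.9% of all genes. In that fit POLR2K was at 0.47, POLR2B at 0.57, POLR1F at 0.11, POLR3G at 0.04 and POLR2H at -0.34. The value of POLR2H rests on a principal transcript with 60.1% GC and a long 5′ untranslated part, while its coding sequence has 47.1%, so the offset used for it is uncertain. Coding length showed little relation to the fold change (r = -0.13, rho = -0.27, 29 members without POLR2A, whose coding model in GENCODE 29 is partial).

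Leaving out both GST 3 and GST-Ferry 1 gave the most member calls of the 15 alternatives run. In that fit 11 of 30 members were higher and 0 lower, against 11.5% and 6.51% of all genes, among them POLR2L, POLR2C, POLR2G, POLR3K, POLR1H, POLR2K, POLR2E, POLR1B, POLR2B and POLR3D. Adjusted p-values of these 11 ran from 0.000231 to 0.0463 (edgeR). The members' median log2 fold change was 0.43, and 27 of 30 lay above 0. The libraries to leave out were known from earlier results of these data, so these calls describe the remaining 4 libraries.

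Overlapping genes limit single members. Of the 30 members, 13 share their span with 17 other genes that had at least 100 counts in total, and all 17 lie on the opposite strand. They include 6 of the 8 members with an unadjusted p under 0.05, among them POLR2L with CD151, POLR3K with SNRNP25, POLR2J with LRWD1, POLR2C with DOK4 and POLR2E with ARHGAP45. The libraries were strand-specific per the labels' protocols, but the strand setting of the counting is not given in the sources used here. Part of these counts could belong to the partner. POLR2A and POLR3D have no such neighbour.

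Other genes of the transcription machinery also gave 0 calls in edgeR's test over all genes. Beside the counts that follow, 47.8% of all tested genes lay above 0, 11.3% were higher at an unadjusted p under 0.05 and 8.05% were lower. Of tested protein-coding genes, 52.0% lay above 0 and 13.4% were higher at that p. Of 30 tested general transcription factors of polymerase II, 9 had a log2 fold change above 0 (median -0.07), 3 were higher at an unadjusted p under 0.05 and 1 was lower, and the most abundant, ERCC2 of TFIIH, had 169 ± 25.3 CPM with GST-Ferry and 123 ± 34.4 CPM with GST. Of 8 polymerase I initiation factors, 2 lay above 0 (median -0.28, 2 higher and 2 lower by the unadjusted p), and the most abundant, TAF1D, had 158 ± 5.93 CPM with GST-Ferry and 311 ± 70.3 CPM with GST, a log2 fold change of -0.98 ± 0.21 with an adjusted p of 0.0559. Of 16 polymerase III initiation factors, 10 lay above 0 (median 0.13, 3 higher and 1 lower), and GTF3C1, the largest TFIIIC subunit, had 272 ± 25.3 CPM with GST-Ferry and 217 ± 50.7 CPM with GST. The polymerase subunits had 23 of 30 above 0, and the difference from these lists was not tested.

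The same shares over all genes were 47.8% above 0, 11.3% higher and 8.05% lower, and over protein-coding genes 52.0% above 0 and 13.4% higher. Against these, the other lists were as follows. Of 26 tested elongation and pausing factors, 16 lay above 0 (median 0.11, 5 higher and 2 lower by the unadjusted p), and SSRP1 of the FACT complex, the most abundant, had 500.3 ± 108.9 CPM with GST-Ferry and 308 ± 62.8 CPM with GST. Of 31 Mediator subunits, 16 lay above 0 (median 0.05, 4 higher and 2 lower), and MED13 of the kinase module, the most abundant, had 238 ± 6.19 CPM with GST-Ferry and 323 ± 71.2 CPM with GST. The list for assembly and import of polymerases had 15 genes, among them POLR2M and IWS1, whose main roles lie elsewhere (log2 fold changes -0.41 and -0.27). Of the 15, 9 lay above 0 (median 0.26, 5 higher and 1 lower), and the ATPase RUVBL2 had 245 ± 44.4 CPM with GST-Ferry and 155 ± 34.7 CPM with GST. None of these genes passed the adjusted test. The polymerase III stalk subunit CRCP, which the symbol rule leaves out, had 38.4 ± 6.29 CPM with GST-Ferry and 37.5 ± 14.7 CPM with GST, and the mitochondrial polymerase POLRMT had 131 ± 21.0 CPM with GST-Ferry and 81.1 ± 25.0 CPM with GST (log2 fold change 0.68 ± 0.25, adjusted p = 0.169). CRCP and POLRMT were chosen after their values were seen. In their list of 7 tested rows outside the symbol rule, 6 lay above 0 (median 0.04) and 1 was higher at an unadjusted p under 0.05, and the most abundant was TFAM, a mitochondrial transcription factor, with 109 ± 16.4 CPM with GST-Ferry and 126 ± 58.8 CPM with GST.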

How the data were processed

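The authors deposited raw read counts per gene for 6 libraries, rRNA-depleted and strand-specific per the labels' protocols. The tools named are STAR 2.5.2b and bcl2fastq 2.19.1, with the build GRCh38.p13, per the submitters' processing notes. The counter, its strand setting, the annotation and the treatment of multi-mapping reads are not given in the sources used here. Totals were 2454538 to 10466520 counts, so the floor of 3 counts equals 0.287 to 1.22 CPM, which covers counting error only.

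Genes were filtered with filterByExpr (minimum count 10, minimum total 15) and tested with edgeR 4.0.16 in R 4.3.3 (TMM, quasi-likelihood, Benjamini-Hochberg over 15546 genes). Standard errors are the log2 fold change over the root of F. The procedure was tested on simulated data. There it called 2 of 67 genes set to differ 1.5-fold, 27 of 69 at 2-fold and 44 of 64 at 3-fold. It made 5 false calls over 15546 genes. At 1.5-fold most genes set to differ were thus missed. Whether these rates hold when a library is shifted with GC content was not tested. GST 3 had such a shift (r = -0.80 over protein-coding genes), so recovery and false calls in the real data could differ. DESeq2 1.42.0, limma-voom (limma 3.58.1) and other alternatives, 15 in all, were run. Among them were loess offsets for the length of all annotated exons joined and for transcript GC content. Deviations and the GC correlations of single libraries used log2(CPM + 0.5), and the GC correlations of fold changes used edgeR's fitted log2 fold changes. Gene types and transcripts are from GENCODE 29. Symbols came from a gene name table, with RefSeq synonyms for older ones.

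The members, lists and alternatives were chosen with earlier results of these data known. Of the subunit genes, 29 are named and 1 is counted but not reported here by name, with values per library for catalytic and common subunits, POLR3G and POLR3GL and the 3 highest and 3 lowest members, and for others chosen after their values were seen. The printed sequences were also chosen then. Each list is represented by its called members, or its most abundant member where none was called. The lists are 8 polymerase I initiation factors, 30 polymerase II general factors and 16 polymerase III initiation factors. Further lists are 27 elongation factors, 31 Mediator subunits, 15 genes listed for assembly and import and 7 symbols outside the rule.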

Additional observations from a re-analysis of the deposited data

How the results depend on the processing

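The members' median log2 fold change (0.28) kept its sign in all 15 alternatives and ran from 0.14 without GST-Ferry 2 to 0.44 without GST-Ferry 1. Of 450 member values under the alternatives, 404 kept their direction and side of the threshold, 14 passed it with the same sign and 32 changed sign. Among those that changed sign, POLR2K without GST 3 and GST-Ferry 1 also passed the threshold. Members called higher numbered 1 with DESeq2, 1 with no filter on low counts, 11 without GST 3 and GST-Ferry 1 together and 0 to 2 leaving out single libraries (2 without GST 3), and 0 were lower in any. Over all genes 92 were higher and 5 lower, against 505 and 178 with DESeq2, 14 and 0 with limma-voom, 11 and 0 with RLE size factors, 7 and 0 with library sizes alone, 220 and 35 with length and GC offsets, 421 and 323 with no filter and 1754 and 992 without GST 3 and GST-Ferry 1. Leaving out single libraries gave 0 to 701 higher and 0 to 558 lower (without GST 3 701 and 558, GST 2 3 and 0, GST 1 62 and 19, GST-Ferry 1 109 and 3, GST-Ferry 2 0 and 0, GST-Ferry 3 3 and 0). Transcription list members called higher and lower, over all lists together, were 0 and 0 in the reported fit. They were 3 and 1 with DESeq2, where 4.17% of all genes were higher and 1.47% lower. Without GST 3 and GST-Ferry 1 they were 25 and 3, against 11.5% and 6.51% of all genes. With offsets they were 1 and 0, and with no filter 3 and 2, where 1.29% and 0.989% of all genes were called. With single libraries left out they were 0 to 6 and 0 to 3, most without GST 3, where 4.45% and 3.54% of all genes were called. The median of all genes was -0.03 with TMM, -0.09 with library sizes alone and -0.18 with no filter. The causes were not tested.

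The following members changed sign, and the cause was not tested. Without GST 3 and GST-Ferry 1, POLR1F was at 0.29, POLR2D at 0.13, POLR2K at 0.67 (adjusted p = 0.0463 by edgeR), POLR3F at 0.075, POLR3G at 0.064 and POLR3GL at -0.073. With offsets, POLR1F was at 0.11, POLR2K at 0.47, POLR3G at 0.040 and POLR2H at -0.34. POLR2H was at -0.021 with DESeq2, -0.015 with RLE size factors, -0.068 with library sizes alone and -0.053 with no filter. POLR3E was at -0.030 with library sizes alone and -0.0020 with no filter, and POLR2K at 0.18 with limma-voom. Leaving out single libraries, values ran from -0.084 (without GST-Ferry 2) to 0.45 (without GST-Ferry 1) for POLR1C, from -0.59 (GST 2) to 0.26 (GST 3) for POLR1F, from -0.27 (GST 1) to 0.12 (GST 3) for POLR2D, from -0.097 (GST 1) to 0.10 (GST-Ferry 1) for POLR2H, from -0.34 (GST 1) to 0.57 (GST 3) for POLR2K, from -0.013 (GST-Ferry 2) to 0.11 (GST-Ferry 1) for POLR3A, from -0.093 (GST 3) to 0.22 (GST-Ferry 1) for POLR3E and from -0.043 (GST 3) to 0.34 (GST 1) for POLR3GL. Alternatives added after the data were seen left out the libraries that stood apart: the correlation of the members' fold changes with GC content was 0.17 without GST 3, 0.58 without GST-Ferry 1 and 0.20 without both, against 0.61. The summed level of the 2 mRNAs shared by polymerases I and III, GST-Ferry over GST, was 0.986 without GST 3, 1.14 without GST-Ferry 1 and 1.09 without both, against 1.03, and the other sums kept their direction.

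Libraries of the 2 baits share replicate numbers. Deviations from the bait means correlated at 0.246, 0.0793 and -0.133 between same-numbered libraries, and not every library correlated best with its own number. With 3 libraries per bait such correlations cannot settle whether the numbers pair the libraries, and the reported fit took them as unpaired. With the replicate block 167 genes were higher and 28 lower, 0 members were called, 1 list member was higher and 1 lower, the members' median was 0.29 and POLR2K was at 0.17.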
